A study of Mus musculus with 18 samples.

Results

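The relation between meiotic DNA breaks and the histone mark that precedes them was followed separately on each parental chromosome of hybrid male mice labelled as the rescue F1. Members are autosomal hotspots of the rescue F1 DMC1 map whose 1 kb H3K4me3 bin had the same centre, was not marked by the authors as PRDM9-independent and held at least 10 H3K4me3 reads that could be assigned to a parental chromosome. A B6 share of the DMC1 reads was also needed. The rule kept 8882 of the 15019 autosomal hotspots of the map, or 59.1% of hotspots and 73.1% of their summed heat. Of the others, 1288 lay in marked bins, 4515 unmarked bins had fewer than 10 assignable reads and 334 further hotspots had no DMC1 share.

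The rescue F1 males had PWD mothers and B6 fathers and carried the PWD and the humanized (Hum) allele of Prdm9. The 2 inbred mouse strains, B6 and PWD, differ at many bases, so reads can be assigned to the chromosome they came from. DMC1 ChIP-seq was made from whole testis of males about 10 weeks old and gave 1 library per cross, so the DMC1 map has no replicate. H3K4me3 ChIP-seq was made from whole adult testis with 2 biological replicates of about 40 to 50 M usable read pairs of 51 bp each and 1 input library, per the labels, which give no age in weeks for these animals and call rescue and infertile males littermates. For comparison, the infertile F1 came from the same direction of cross with the PWD and B6 alleles, the reciprocal F1 from B6 mothers and PWD fathers with the B6 and PWD alleles, and the Hum/PWD F1 from B6 mothers and PWD fathers with the Hum and PWD alleles. An H3K4me3 table of inbred B6 males with Hum on both copies of Prdm9 (Hum/Hum), from 1 biological replicate, served in 1 alternative. Whole testis holds many kinds of cells, so fewer cells with a mark and less of the mark per cell cannot be told apart.

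PRDM9 is a zinc-finger histone methyltransferase of early meiosis. It binds DNA at its own motif and deposits H3K4me3 on the nucleosomes beside it, and SPO11 then cuts the DNA at some of these sites. The cut ends are trimmed to single strands, which the strand-exchange protein DMC1 coats while they search the homologous chromosome for a template. A DMC1 signal therefore depends both on how many breaks form and on how long they stay unrepaired, and DMC1 ChIP-seq cannot separate these. Where PRDM9 binds only 1 of the parental chromosomes, the break is made opposite an unbound copy.

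Sequences of 6 member hotspots are shown because they carry the contrast examined here, sites marked on 1 chromosome against sites marked on both. Each is the B6 reference sequence (RefSeq GRCm38.p6, mm10, + strand) over 201 bp around the centre of the hotspot, and PWD sequence was not analysed here. Capitals mark the closest match, on either strand, to CCNCCNTNNCCNC, the motif known for common human PRDM9 alleles. They are given only for hotspots that the authors assigned to the Hum allele. Capitals do not show binding, and the closest match in the PWD-allele Sephs1 hotspot also held 6 of 8 fixed bases. The first pair lay opposite a nearly unmarked homologue: the Sephs1 hotspot (chr2:4897407-4897607, intron, PWD allele) on B6 and the Rxfp1 hotspot (chr3:79668703-79668903, intron, Hum allele, 6 of 8 fixed bases) on PWD. The next pair lay opposite a strongly marked homologue, the Phtf2 hotspot (chr5:20754232-20754432, 4331 bp outside the gene, 6 of 8) and the Cfap54 hotspot (chr10:93007543-93007743, intron, 7 of 8). The Samd13 hotspot (chr3:146679092-146679292, intron) and the Reln hotspot (chr5:22153004-22153204, intron) hold all 8 fixed bases and were chosen after their values were seen, as the hottest such asymmetric B6 hotspot and the hottest such balanced hotspot outside UTRs.
Sephs1: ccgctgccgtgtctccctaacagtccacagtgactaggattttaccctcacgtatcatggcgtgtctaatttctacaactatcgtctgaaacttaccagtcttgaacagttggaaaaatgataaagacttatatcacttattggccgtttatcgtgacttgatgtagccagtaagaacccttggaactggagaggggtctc
Rxfp1: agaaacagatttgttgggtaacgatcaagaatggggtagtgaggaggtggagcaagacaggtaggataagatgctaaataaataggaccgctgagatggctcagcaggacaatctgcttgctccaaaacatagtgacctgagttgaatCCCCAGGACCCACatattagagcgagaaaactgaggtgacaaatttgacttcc
Phtf2: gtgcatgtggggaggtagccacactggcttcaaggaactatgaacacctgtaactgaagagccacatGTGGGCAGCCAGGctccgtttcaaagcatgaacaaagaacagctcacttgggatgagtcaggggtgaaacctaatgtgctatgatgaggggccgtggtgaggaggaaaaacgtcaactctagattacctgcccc
Cfap54: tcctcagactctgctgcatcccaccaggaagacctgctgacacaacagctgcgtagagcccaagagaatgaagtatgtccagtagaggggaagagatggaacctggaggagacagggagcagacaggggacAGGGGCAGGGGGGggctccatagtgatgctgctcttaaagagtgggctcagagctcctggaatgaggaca
Samd13: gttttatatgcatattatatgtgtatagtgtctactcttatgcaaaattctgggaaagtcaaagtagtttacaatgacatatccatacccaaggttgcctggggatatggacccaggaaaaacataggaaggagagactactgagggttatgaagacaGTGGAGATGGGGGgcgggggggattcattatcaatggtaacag
Reln: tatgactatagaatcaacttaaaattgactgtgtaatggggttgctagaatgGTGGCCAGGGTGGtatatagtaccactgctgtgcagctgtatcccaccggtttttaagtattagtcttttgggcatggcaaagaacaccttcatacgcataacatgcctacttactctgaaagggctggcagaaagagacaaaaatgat

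The Samd13 site shows the marked-on-1-chromosome case. Its enrichment was 1.75 in replicate 1 and 1.72 in replicate 2, all of it assigned to B6, and its DMC1 heat of 474.7 gave 273.9 per unit of enrichment, with a DMC1 B6 share of 0.989. The Reln site shows the balanced case, with enrichments of 4.22 and 4.82 and a B6 share of H3K4me3 of 0.503. Its heat of 670.6 gave 148.2 per unit of enrichment, with a DMC1 B6 share of 0.365. Both sequences hold a full motif match in the B6 reference, while the Samd13 site had less H3K4me3 and more heat per unit of it. Both are the hottest of their kind, and typical sites differed less. Over Hum-allele members with the full motif, median heat per unit of enrichment was 68.8 above a B6 share of 0.9 (n = 99). From 0.3 to 0.7 it was 58.8 (n = 332).

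The full motif lay in the 201 bp window centred on the hotspot in 10.3% of Hum-allele members (567 of 5502, Wilson 95% interval 9.53 to 11.1%). It did so in 1.04% of PWD-allele members (25 of 2408, 0.704 to 1.53%) and 4.01% of members of undetermined allele. Windows of the same length 5 kb to either side held it in 2.06%, 1.58% and 1.72%. With at least 7 of the 8 fixed bases the shares were 46.1% for the Hum allele against 19.9% in the windows to the side, and 15.4% against 17.1% for the PWD allele. The authors' Hum assignment thus went with the human motif and their PWD assignment did not. Among Hum-allele members the full motif was found in 5.50% (3.88 to 7.75%) where at most 0.1 of the H3K4me3 came from B6, in 11.7% (10.6 to 13.0%) where 0.3 to 0.7 came from B6 and in 9.35% (7.74 to 11.3%) where over 0.9 did. The reference is the B6 sequence, so a motif present only on PWD is not seen in it. In balanced Hum-allele members the heat per unit of enrichment was 58.8 with the motif (n = 332) and 57.6 without it (n = 2495). In the other classes, from low to high B6 share, it was 106.8 with the motif and 101.3 without it, 65.0 and 75.7, 62.7 and 63.8, and 68.8 and 88.2, with 30 to 99 members that held the motif in each, and these differences were not tested.

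Most members belonged to the Hum allele by the authors' allele column. There were 5502 Hum (61.9%), 2408 PWD (27.1%), 99 attributed to both alleles and 873 undetermined (9.83%). H3K4me3 of Hum-allele members came from both chromosomes, with a median B6 share of 0.540, and that of PWD-allele members mostly from B6, with a median of 0.755. DMC1 followed, with median B6 shares of 0.508 and 0.826. Undetermined members leaned furthest, with 0.893 by H3K4me3 and 0.923 by DMC1. Over all members B6 held 58.8% of the H3K4me3 and 60.1% of the heat. Of the members 134 (1.51%) were at most 1 kb from the transcription start of a protein-coding gene. The rule for members had left out bins marked as PRDM9-independent, and the share over the whole map is not given here.

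The H3K4me3 enrichment, a ratio to local background made by the authors, had a median of 1.18 in the members, with quartiles of 0.684 and 2.03. Replicate 1 gave a median of 39 fragments per bin, replicate 2 gave 44 and the input 27, and the enrichments of single replicates had a Spearman correlation of 0.915 across the 8882 bins, which share the input. The median number of assignable reads was 31.4. Heat, a relative DMC1 signal whose definition is not given in the sources used here, had a median of 80.2. Members were hotter and more enriched than the hotspots left out, whose medians were 37.9 and 0.534. Among those, the 1288 in marked bins had a median heat of 66.5 and the higher median enrichment of 2.85. Just inside the limit, with 10 to 11 assignable reads, 307 hotspots had a median heat of 44.3 and enrichment of 0.444, and the 291 just outside, with 9 to 10 reads, had 42.8 and 0.427.

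Each hotspot was then split into a B6 copy and a PWD copy. The H3K4me3 level of a copy is the enrichment times the share of H3K4me3 from that chromosome, and its DMC1 part is the heat times the share of DMC1 from it. The median level was 0.687 on B6 and 0.395 on PWD, and the median DMC1 part 39.2 and 22.3. Across copies the DMC1 part and the level ranked alike, with Spearman correlations of 0.790 on B6 and 0.824 on PWD (n = 8882 hotspots, from the same libraries). That of total heat and total enrichment was 0.632. Copy values also contain the share of the chromosome, and how far the shares by themselves raise the correlations was not tested. Heat per unit of H3K4me3, the DMC1 part over the level of the same copy, is the quantity compared below.

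A copy without detected H3K4me3 had little DMC1. On B6 482 copies (5.43%) were listed at 0, and the median DMC1 share on them was 3.55%. On PWD 1163 copies (13.1%) were listed at 0, with a median DMC1 share of 2.30%. The DMC1 share was above 10% on 69 of the B6 and 122 of the PWD copies at 0. On the homologues opposite these copies the median heat per unit of H3K4me3 was 115.0 where the B6 copy was at 0 and 104.3 where the PWD copy was.

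Copies opposite a weakly marked homologue had more DMC1 for the same H3K4me3. B6 copies were put in 5 equal groups by the level on the PWD homologue, n = 1680 in each. From the lowest to the highest group the median heat per unit of H3K4me3 on B6 was 99.9, 77.0, 58.3, 50.1 and 44.8, while the median homologue level was 0, 0.114, 0.370, 0.764 and 1.67. The order was the same at each step, and the quartiles of the outer groups, 63.4 to 151.2 and 26.1 to 74.6, overlapped. The lowest group stood 2.23-fold above the highest.

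PWD copies gave nearly the same picture, with 1543 copies in the first group and 1544 in the others. Their median heat per unit was 98.4, 67.7, 54.2, 51.2 and 44.0, with median levels on the B6 homologue of 0.0510, 0.336, 0.651, 1.11 and 2.06. The lowest group stood 2.24-fold above the highest. Ratios of summed heat to summed level were 112.9 in the lowest and 52.4 in the highest group on B6, and 111.1 and 54.9 on PWD. With enrichment from replicate 1 alone the fold was 2.22 on B6 and 2.48 on PWD, and from replicate 2 alone 2.35 and 2.37. With no second DMC1 library of this cross and hotspots that are not replicates, these folds carry no test.

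**Figure D1:**
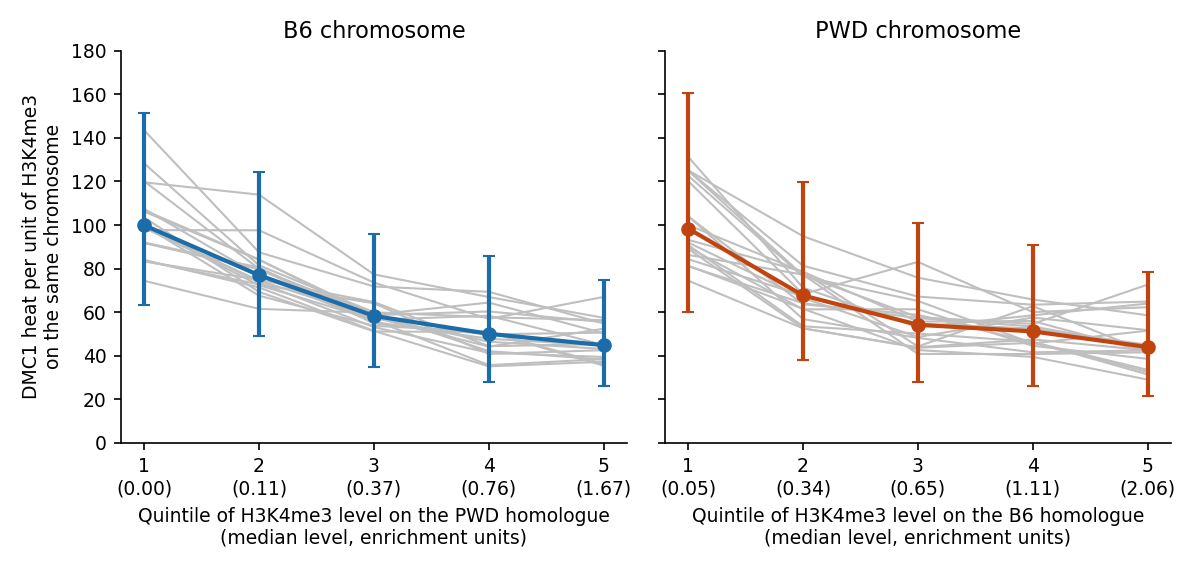
Median DMC1 heat per unit of H3K4me3 on the B6 chromosome (left) and PWD chromosome (right) by quintile of the H3K4me3 level on the homologue, with the median level of each quintile in enrichment units under the axis. Bars are quartiles over copies and grey lines are the 19 autosomes on their own. Medians run from 99.9 to 44.8 on B6 and from 98.4 to 44.0 on PWD.

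The outer quintiles differed in the same direction on each autosome taken alone, while the steps between them did not always follow the order. On PWD chromosome 3, for example, the upper 3 quintiles had 57.7, 54.6 and 72.6. The fold of the lowest over the highest quintile was above 1 on 19 of 19 autosomes for both parental chromosomes. On B6 it ran from 1.46 on chromosome 12 to 2.92 on chromosome 4, with a median of 2.21. On PWD it ran from 1.72 on chromosome 3 to 3.10 on chromosome 17, with a median of 2.14. The autosomes share the libraries, so their range is a description and not a set of replicates.

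The level of the copy itself went with far less of a difference. In quintiles of its own level, the median heat per unit on B6 was 72.8, 64.9, 59.7, 62.2 and 62.1, over median own levels from 0.152 to 2.11. On PWD it was 72.7, 65.0, 62.9, 60.7 and 55.4. DMC1 was thus close to proportional to H3K4me3 on the same chromosome when the homologue was ignored, and the homologue quintiles differed more.

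The comparison was repeated within quintiles of own level, since own and homologue level are not independent. In the group with the strongest own level on B6 (n = 336 per cell), the median DMC1 part was 225.8 in the lowest and 113.1 in the highest homologue group, at own levels of 2.04 and 2.57. The matching heat per unit was 101.2 and 42.4. In the strongest own group on PWD the median DMC1 part was 175.4 and 107.8, at own levels of 1.75 and 2.48, and the heat per unit 90.3 and 42.4. In these strongest groups the copies opposite a weak homologue thus held more DMC1 with a lower level of their own. In the weakest own group their own level was instead the higher, 0.206 against 0.0936 on B6 and 0.0704 against 0.0533 on PWD.

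Over the 5 own-level groups the fold was 2.68, 2.39, 1.94, 2.06 and 2.39 on B6, with a mean on the log2 scale that corresponds to 2.28-fold. On PWD it was 2.42, 4.96, 2.39, 1.81 and 2.13, with a mean of 2.56-fold. The value of 4.96 stood apart, and came from copies of low own level, a median of 0.227 with a homologue at 1.66, where the heat per unit was 23.5. Matched folds on single autosomes ran from 1.77 on chromosome 12 to 2.96 on chromosome 4 for B6 and from 1.89 on chromosome 14 to 3.30 on chromosome 13 for PWD. Members had to be called in the DMC1 map, and their lowest heat was 13.7. A weakly marked copy opposite an unmarked homologue must reach this alone, while one opposite a strong homologue need not. In the weakest own group on B6 the DMC1 part had a lower quartile of 13.7 in the lowest homologue group. In the highest homologue group its median was 3.69. How far this raises the folds of the weaker own groups was not tested. Own and homologue level both contain the total enrichment, so an error in it moves them together. With groups made by the share of H3K4me3 on the homologue the matched fold was 1.83 on B6 and 1.63 on PWD. With own level from 1 ChIP replicate and homologue level from the other it was 2.17 and 2.21 on B6 and 2.52 and 2.43 on PWD. Both replicates were taken over the same input and split by the same B6 share. Errors in these thus stay in both levels, and this alternative does not remove them.

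**Figure D2:**
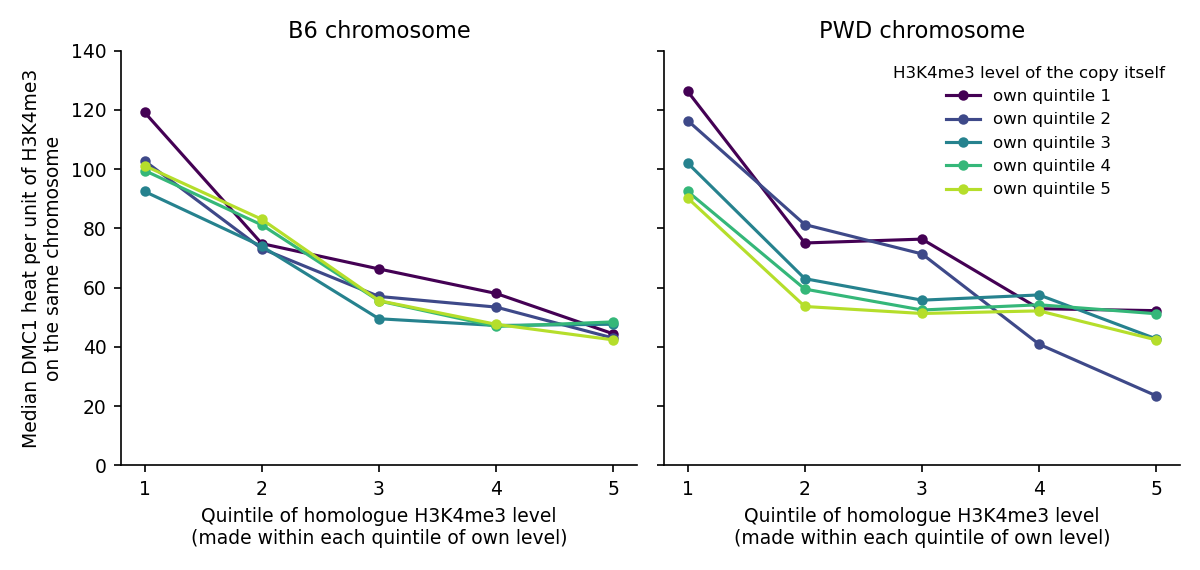
Median DMC1 heat per unit of H3K4me3 by quintile of homologue level, 1 line for each quintile of the H3K4me3 level of the copy itself (1 lowest, 5 highest), on B6 (left) and PWD (right). Each line ends lower than it starts, with the lowest end point at 23.5 for the second own-level quintile on PWD.

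Total heat over total enrichment needs no split by chromosome and gave the same order. The median was 103.3 where at most 0.1 of H3K4me3 came from B6 (n = 948), 73.6 from 0.1 to 0.3 (n = 693), 56.9 from 0.3 to 0.7 (n = 3773), 66.1 from 0.7 to 0.9 (n = 1103) and 95.4 above 0.9 (n = 2365). Hotspots marked on 1 chromosome thus lay highest at either end, and balanced hotspots lowest. Asymmetric hotspots, those of the outer classes, stood 1.72-fold above balanced hotspots, those from 0.3 to 0.7. The fold was 1.69 with enrichment of replicate 1 alone and 1.73 with that of replicate 2 alone. It ran from 1.52 on chromosome 12 to 2.03 on chromosome 19.

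Balanced hotspots were more enriched, with a median of 1.55 against 0.854 and 1.06 in the outer classes. In quintiles of total enrichment the asymmetric hotspots gave 122.9, 85.9, 92.3, 97.6 and 78.4 and the balanced ones 87.0, 61.0, 54.0, 51.0 and 49.1. The fold was 1.41, 1.41, 1.71, 1.91 and 1.60, above 1 in each. The difference between the classes was thus present at each level of total enrichment.

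The shares themselves were compared next. If heat per unit were equal on both chromosomes, the DMC1 share would equal the H3K4me3 share. For the more strongly marked chromosome of a hotspot, the median DMC1 share was 0.522 where its H3K4me3 share was 0.5 to 0.6 (n = 2443) and 0.616 where it was 0.6 to 0.7 (n = 1330), at median H3K4me3 shares of 0.544 and 0.644. By these medians DMC1 was no more uneven than H3K4me3 in near-balanced hotspots. The stronger chromosome was picked by the same H3K4me3 share that is compared here. How far counting error raises that share was not tested. With at least 50 assignable reads the DMC1 medians were 0.526 and 0.648 at H3K4me3 medians of 0.540 and 0.634, so in the second class DMC1 was then slightly the more uneven, in 52.1% of 380 hotspots. From 0.7 to 0.8 the median DMC1 share was 0.800 (n = 917) at a median H3K4me3 share of 0.749, and from 0.8 to 0.9 it was 0.938 (n = 879) at 0.855.

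In the class from 0.8 to 0.9, DMC1 was more uneven than H3K4me3 in 76.1% of hotspots. Heat per unit was 79.3 on the stronger and 32.3 on the weaker chromosome. With at least 50 assignable reads, 170 hotspots of this class remained, with a median DMC1 share of 0.941 and DMC1 more uneven in 90.0%. The DMC1 library of the Hum/PWD F1, which carries the same Prdm9 alleles from the opposite cross, gave a median of 0.951 and DMC1 more uneven in 81.2% of 851 hotspots. In the class from 0.9 to 0.999 the DMC1 share was 0.971 at an H3K4me3 share of 0.958. Where all reads came from 1 chromosome the DMC1 share had a median of 0.974, so a small DMC1 share on the other chromosome was left.

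**Figure D3:**
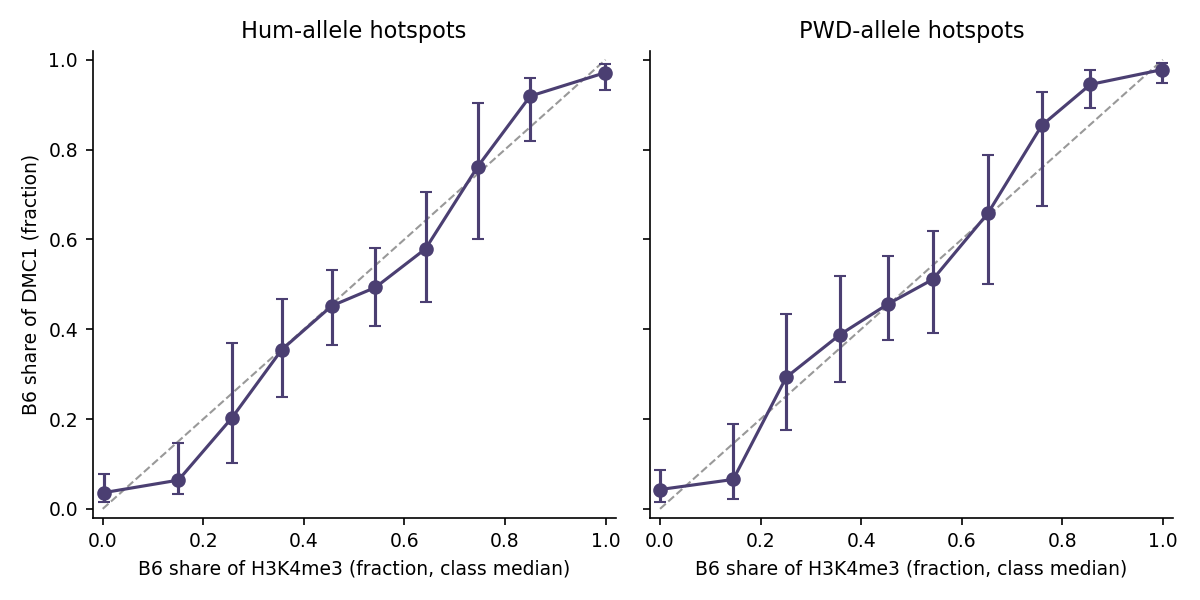
B6 share of DMC1 (median and quartiles) against B6 share of H3K4me3 in 10 classes for Hum-allele (left) and PWD-allele (right) hotspots, with the line of equal shares dashed. Points lie close to the dashed line just below a share of 0.5 and away from it, towards 0 or 1, around shares of 0.15 and 0.85. Just above 0.5 they lie under the line. There the DMC1 share was 0.493 at an H3K4me3 share of 0.542 for Hum, and 0.511 at 0.543 for PWD.

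Both Prdm9 alleles showed the difference by homologue level. For Hum-allele hotspots the median heat per unit in the lowest and highest homologue quintile was 87.9 and 45.5 on B6 and 98.1 and 47.7 on PWD. For PWD-allele hotspots it was 109.4 and 40.0 on B6 and 96.0 and 35.0 on PWD. The matched fold, averaged over both chromosomes on the log2 scale, was 2.05 for the Hum and 2.76 for the PWD allele. With single replicates the values were 2.29 and 2.20 for Hum and 2.92 and 3.08 for PWD, and the difference between alleles was not tested. By total heat over enrichment, asymmetric classes of the Hum allele had 101.3 and 86.5 against 57.8 in the balanced class, and those of the PWD allele 103.4 and 104.7 against 54.1.

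Position along the chromosome went with heat per enrichment as well. Mouse autosomes have the centromere at the end where coordinates start. In quintiles of the chromosome from that end the median heat per enrichment was 96.4, 72.2, 66.9, 65.4 and 67.9. Asymmetric over balanced hotspots gave 1.57, 1.70, 1.86, 1.69 and 1.71 in these quintiles, so the difference by balance was present in each.

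Single hotspots illustrate the range. Coordinates are those of the 1 kb bins in mm10. Each is named by the gene it lies in or the nearest protein-coding gene in GENCODE M21, which says where it is and nothing of the expression of the gene. The intervals on H3K4me3 shares are Wilson 95% intervals from the assignable reads, which are corrected for background and thus not whole numbers, and cover counting error only. The DMC1 shares were deposited without read numbers and carry none.

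Among B6 copies opposite a weak homologue the hottest lay in Sephs1, a gene of the selenophosphate synthetase family. Its bin held 60 and 68 ChIP fragments over 31 in the input, its enrichment was 1.65 and 1.70 in the replicates, and its H3K4me3 B6 share was 1 (0.930 to 1). The DMC1 B6 share was 0.998, and the heat of 730.8 gave 435.6 per unit on B6. The next were near Esr1, which encodes estrogen receptor alpha (chr10:4590894-4591893, 20200 bp away), and near Phf3 (chr1:30776659-30777658, 25181 bp away), with 206.0 and 286.9 per unit and DMC1 B6 shares of 0.990 and 0.986.

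On PWD the hottest copy opposite a weak homologue lay in Rxfp1, the gene of a relaxin receptor. The bin held 59 and 87 fragments over 38 in the input, with enrichments of 1.27 and 1.79. No H3K4me3 was assigned to B6 in 69.4 reads, for a B6 share of 0 (0 to 0.0525). A count of 0, taken as up to 3 reads, allows a share of up to 0.0432. In this hotspot the DMC1 B6 share was 0.003, and the heat of 794.8 gave 516.2 per unit on PWD. The next lay near Tti2 (chr8:31140763-31141762, 9053 bp away), whose product assists the folding of kinases such as ATM, and near Nckap5 (chr1:126930300-126931299, 100000 bp away), with 266.8 and 201.4 per unit and DMC1 B6 shares of 0.004 and 0.006. The 6 hotspots of this kind were read as almost wholly from 1 chromosome by both assays. They were chosen for a weak homologue and a high DMC1 part on 1 chromosome, so the choice itself favoured this.

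Opposite a strong homologue, the hottest B6 copy lay 4331 bp from Phtf2. It held 120 and 120 fragments over 21, with an H3K4me3 B6 share of 0.575 (0.501 to 0.646), a heat of 933.2 and a DMC1 B6 share of 0.747, so heat per unit was 233.2 on B6 and 106.8 on PWD. The Hum/PWD F1 gave this hotspot a DMC1 B6 share of 0.694. In an intron of Slc26a4, the gene of the anion transporter pendrin (chr12:31533250-31534249), heat per unit was 267.4 on B6 and 202.5 on PWD. In an intron of the lincRNA gene Gm47771 (chr10:17564765-17565764), which was among the hottest copies of this kind on both chromosomes, it was 135.8 and 110.4.

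For PWD copies opposite a strong homologue, a hotspot in Cfap54, a gene of the sperm tail axoneme, had 178 and 183 fragments over 35. Its H3K4me3 B6 share was 0.577 (0.456 to 0.690) and its DMC1 B6 share 0.419, and heat per unit was 273.5 on PWD and 144.4 on B6. The hottest member of all, with a heat of 949.9, lay in the antisense gene Gm16090, with an H3K4me3 B6 share of 0.484 (0.413 to 0.555) and a DMC1 B6 share of 0.447. Its heat per enrichment of 284.4 was also the highest among the quintile of members with the most H3K4me3, followed by hotspots in introns of Pawr (chr10:108413064-108414063) with 283.5 and Mllt3 (chr4:88016598-88017597) with 272.0. The Pawr and Mllt3 hotspots were marked on 1 chromosome, PWD and B6, and Gm16090 on both, so the highest values for strong bins were not limited to asymmetric sites.

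At the other end, 3 strongly marked bins had little DMC1 in the rescue F1. A bin 33114 bp from Cul1, the scaffold gene of SCF ubiquitin ligases (chr6:47419785-47420784), had a heat of 19, or 3.30 per unit of enrichment. Its enrichment was 6.86 and 4.71 in the replicates, from 50 and 38 fragments over only 7 in the input. A bin 66228 bp from Cth, the gene of cystathionine gamma-lyase (chr3:157827521-157828520), had enrichments of 5.79 and 6.59 from 164 and 201 fragments over 27 and a heat of 21.8, or 3.51 per unit. A bin in an intron of Rnf214 (chr9:45888058-45889057) had 4.16 and 3.90 and a heat of 17.6, or 4.37 per unit. In the Hum/PWD F1 map the heat was 32.2 for the Cul1 and 59.3 for the Cth hotspot, and no hotspot was matched to the Rnf214 bin. By the rule for members, none of the 3 could be in a bin marked as PRDM9-independent. They had H3K4me3 on both chromosomes, with B6 shares of 0.255, 0.407 and 0.289.

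**Figure D4:**
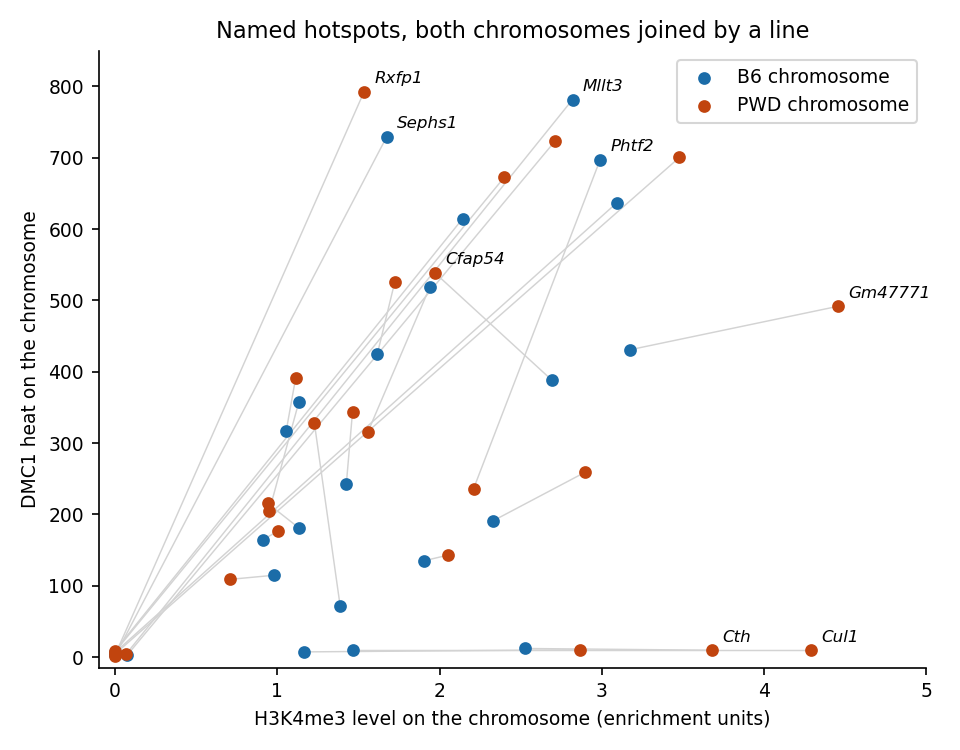
DMC1 heat against H3K4me3 level on the B6 and PWD chromosomes of the named hotspots, with the copies of 1 hotspot joined by a line. Copies of the hotspots marked on 1 chromosome sit near the origin and on a steep line, Rxfp1 and Sephs1 the steepest, and the Cul1 and Cth hotspots lie along the bottom with heat near 10 on each copy.

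Among balanced hotspots of the PWD allele the hottest lay in a coding exon of Smap1 (chr1:23847965-23848964), with a heat of 708.6 and 300.7 and 351.2 per unit on B6 and PWD. Hotspots in Ncoa1, a steroid receptor coactivator gene, and Tpr, a nuclear pore gene, followed with 170.5 and 235.0, and 316.0 and 215.6. Of those attributed to both alleles, the hottest lay in Fbxw10, with 82.0 and 89.5 per unit from 330.2 assignable reads. The hotspot in an intron of Gm20696 (chr6:99295557-99296556) stood apart, with an H3K4me3 B6 share of 0.530 (0.450 to 0.609) and a DMC1 B6 share of 0.178, which was 0.174 in the Hum/PWD F1. Its heat per unit was 51.2 on B6 and 267.1 on PWD. The hotspot in Map4k3 gave 159.0 and 228.9.

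Among balanced hotspots of undetermined allele the hottest lay near Pfkfb3, a regulator of glycolysis (35860 bp away), with a heat per unit of 180.5 on B6 and 175.7 on PWD. In Fam69a it was 70.9 and 69.7, and in Entpd1, which encodes an enzyme that degrades extracellular ATP, 117.2 and 154.3. Among these 3 the copies were closest in the Pfkfb3 and Fam69a hotspots and further apart in Entpd1.

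The Hum/PWD F1 gave a separate DMC1 library for the same alleles. Of the members 8775 had a hotspot within 1000 bp in its map, with Spearman correlations of 0.938 for heat and, over 8754 hotspots, 0.946 for the DMC1 B6 share. With its heat and share in place of those of the rescue F1, the fold by homologue level was 2.49 on B6 and 2.24 on PWD, and the matched fold 2.54 and 2.47. The asymmetric over balanced fold was 1.82. The H3K4me3 values were the same in both, so only the DMC1 side was measured anew.

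The same rule was applied to the other hybrids with an H3K4me3 table, and each value rests on 1 DMC1 library. The infertile F1 gave 12196 of 23554 hotspots and the reciprocal F1 7318 of 17516. Asymmetric over balanced hotspots stood at 1.83 in the infertile and 2.78 in the reciprocal F1, against 1.72 in the rescue F1. The matched fold was 2.56 on B6 and 2.75 on PWD in the infertile F1, and 6.45 and 6.59 in the reciprocal F1. The rescue F1 thus lay nearer to the infertile than to the reciprocal F1, and asymmetric hotspots made up 37.3% of its members, 44.9% in the infertile and 53.2% in the reciprocal F1. Differences between crosses were not tested, and cross, animal and library cannot be told apart.

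**Figure D5:**
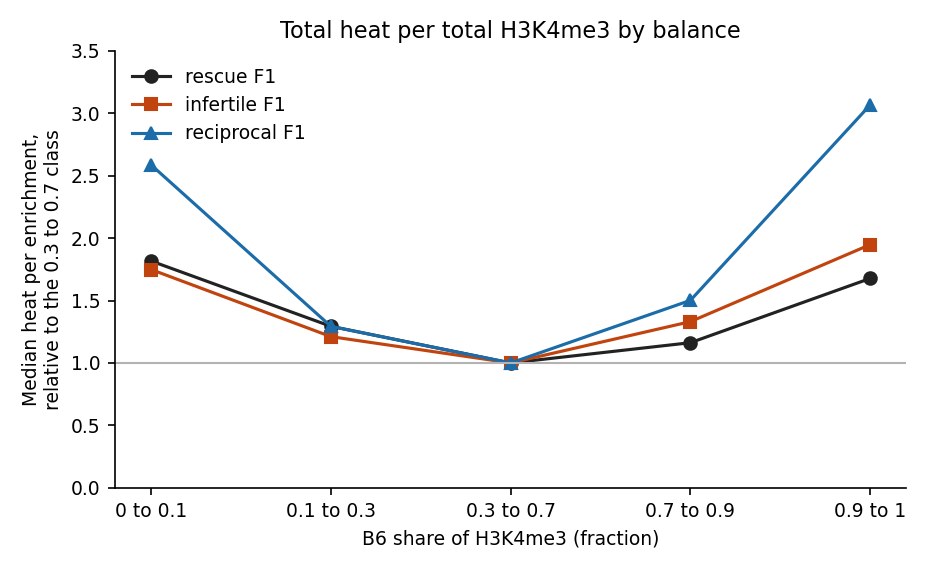
Median total heat per total H3K4me3 enrichment by class of the B6 share of H3K4me3, relative to the balanced class (0.3 to 0.7) of the same cross, for the rescue, infertile and reciprocal F1. The outer classes of the rescue F1 lie at 1.82 and 1.68, those of the infertile F1 at 1.75 and 1.95 and those of the reciprocal F1 at 2.59 and 3.07.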

How the data were processed

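Every value derives from the deposited tables. The submitters' processing notes name BWA for alignment to mm10 and, for H3K4me3, also SAMtools and bedtools, without versions. What called the hotspots is not given in the sources used here. DMC1 heat is a relative signal deposited by the authors, and the B6 shares of DMC1 and H3K4me3 reads are fractions deposited by the authors. Per the file headers, counts are ChIP or input fragments per 1 kb bin, and assignable reads are a signal corrected for background. The enrichment is, per the file headers, a ratio to local background fitted by maximum likelihood, never below 0, and the p-value tests it against 0.

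Calculations ran in Python (3.11.15) with pandas (2.3.3), NumPy (2.4.6), SciPy (1.17.1), pysam (0.24.0) and Matplotlib (3.10.9). Members, groups and alternatives were chosen with earlier results of these data known. Copies with a level of 0 have no heat per unit and stayed out of the quintiles, which are groups of equal size. Enrichment of 1 replicate was recomputed from count over input on the scale of the deposited enrichment and split by the deposited B6 share, so the replicates share the input and that share. Matched folds are means of log2 ratios over 5 groups of own level. With 1 DMC1 library per cross no p-value was computed. The split into copies was checked on simulated heats built from the observed H3K4me3 levels, which were taken as free of error. The check concerned the ratio of copies below over above a set homologue level and not the folds reported here. Hotspot calling was not simulated. Alternatives changed the read minimum, the bins kept, the replicate, the DMC1 map, the grouping and the source of the split.

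Named hotspots are the 3 hottest copies on each chromosome in the lowest and highest homologue quintile, the 3 highest and 3 lowest in heat per enrichment among the quintile of members with the highest enrichment, and the 3 hottest of each allele class with a B6 share from 0.4 to 0.6. The X chromosome and the remaining maps were not used here.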

Additional observations from a re-analysis of the deposited data

How the results depend on the processing

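The 7 folds were recomputed under the alternatives that apply to each, 114 values in all. The split by DMC1 share was run only for the matched folds on B6 and PWD, own level from Hum/Hum only for the matched B6 fold, classes by DMC1 share and distance from a start only for the asymmetric fold, and different replicates only for the folds on B6 and PWD. The asymmetric fold was not run with sums, other groups, upper own levels or the homologue share. All 114 stayed above 1, from 1.54 to 3.51, 25 moved by less than the SD between single-replicate values and 89 by more, and none reversed. As reported, the fold by homologue level was 2.23 on B6 and 2.24 on PWD, the matched fold 2.28 on B6, 2.56 on PWD, 2.05 for the Hum and 2.76 for the PWD allele, and the asymmetric over balanced fold 1.72. Enrichment from 1 replicate at a time gave 2.22 to 2.35 on B6, 2.37 to 2.48 on PWD, matched folds of 2.36 to 2.39 on B6, 2.76 to 2.96 on PWD, 2.20 to 2.29 for the Hum and 2.92 to 3.08 for the PWD allele, and 1.69 to 1.73 for asymmetric over balanced hotspots. With at least 5 assignable reads the PWD fold was 2.43 and the matched folds 2.32 on B6, 2.93 on PWD, 2.14 for Hum and 3.04 for the PWD allele. With at least 20 the PWD fold was 2.10, the matched folds 2.18 on B6, 2.18 on PWD, 1.91 and 2.65, and the asymmetric fold 1.77. With at least 50 the folds were 2.35 on B6 and 2.01 on PWD, the matched folds 2.07, 2.00, 1.71 and 2.27, and the asymmetric fold 1.86. Keeping bins marked as PRDM9-independent gave folds of 2.59 and 2.93, matched folds of 2.71, 3.27, 2.31 and 3.51, and an asymmetric fold of 1.86. DMC1 values of the Hum/PWD F1 gave 2.49 on B6, matched 2.54 on B6 and 2.89 for the PWD allele, and 1.82 for asymmetric over balanced. The hotter 0.5 of hotspots gave folds of 2.81 and 3.15, matched folds of 2.67 on B6, 3.02 on PWD and 2.56 for Hum, and an asymmetric fold of 1.77. Bins with a deposited p-value of at most 0.001 gave folds of 2.11 and 1.99, matched folds of 2.04, 2.21, 1.86 and 2.55, and an asymmetric fold of 1.68. Ratios of sums gave 2.02 on PWD and matched folds of 2.23 on B6, 2.37 on PWD and 1.96 for Hum. With 3 groups the folds were 1.99 and 1.90 and the matched folds 1.99, 2.04, 1.66 and 2.24, and with 10 groups 2.37 and 2.74, and 2.55, 3.28, 2.45 and 3.47. Copies in the upper 0.5 of own level gave 2.01 on PWD and matched folds of 2.11, 1.98, 1.70 and 2.97. Groups by homologue share gave folds of 1.83 and 1.73 and matched folds of 1.83, 1.63, 1.54 and 1.98. Own and homologue level from different replicates, chosen after the data were seen, gave matched folds of 2.17 and 2.21 on B6 and a fold of 2.13 on PWD. A split of H3K4me3 by the DMC1 share of the Hum/PWD F1 gave matched folds of 1.86 and 1.94, and own level taken from the Hum/Hum males gave 1.67 on B6. The latter covers only the 4907 B6 copies with a Hum/Hum bin, a smaller set than in the reported fold. Classes by the DMC1 share gave asymmetric folds of 1.63 with the rescue map and 1.64 with the Hum/PWD F1 map. Leaving out bins with input above 10 times the median removed no member.

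The causes of these shifts were not tested. No paired analysis was possible because each cross has 1 DMC1 library and no result comes from a test. Each B6 share rests on few reads at weak bins, which limits the split there, and the reads behind the DMC1 shares are unknown. Hotspots with few assignable reads were weaker and are not covered by these values. Sites too weak to be called in the DMC1 map are not covered either.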
